A study of Homo sapiens with 6 samples.

Results

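The genes described here make cholesterol and fatty acids or control that synthesis. They were taken as a list of 32 genes of the sterol and fatty acid pathways, and each was read by the probe set that was brightest by its mean over all 6 arrays. On the array 28 of the 32 had a probe set annotated to that 1 gene symbol, out of 19775 genes so named. FDFT1 and ACSL3 had no such probe set in the annotation used, and CYP51A1 and FADS1 were covered by probe sets annotated to 2 symbols each, so no value is given for these 4. All 28 passed the filter on level.

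The arrays came from L428, an established Hodgkin lymphoma cell line, and compared 3 samples nucleofected with an inhibitor of miR-9, a microRNA, made of locked nucleic acid (LNA) with 3 samples that received a scrambled LNA the same way. RNA was extracted after 9 h from cells grown in medium with fetal bovine serum, and 1 Affymetrix HG-U133 Plus 2.0 array was hybridized per sample. Values are log2 expression on the scale deposited by the authors, and each difference is the miR-9 LNA mean minus the scrambled LNA mean on that scale, with the standard error (SE) from limma. The labels number the replicates within each group from 1 to 3 without naming separate cultures, and the spread that p-values rest on may therefore be technical.

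Cells build cholesterol from acetyl-CoA through mevalonate, isoprenoids, squalene and lanosterol, and build fatty acids from the same acetyl-CoA through malonyl-CoA. Most of these enzymes are under the SREBP transcription factors, encoded by SREBF2 and SREBF1. SREBPs are released from the endoplasmic reticulum when membrane sterol is low, while INSIG proteins hold them back when sterol is plentiful. Cells that take up cholesterol from serum lipoproteins keep this program low, and proliferating cells that lack such a supply raise it.

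The inhibitor is directed at miR-9, whose mature strands are shown because they define the treatment. The labels do not say which strand the LNA covers. RefSeq (GRCh38.p14) places miR-9 at 3 loci, MIR9-1, MIR9-2 and MIR9-3, which give identical mature sequences. Capitals mark the seed, bases 2 to 8 from the 5′ end.
hsa-miR-9-5p: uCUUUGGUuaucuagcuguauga
hsa-miR-9-3p: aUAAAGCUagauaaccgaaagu

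L428 identity and array quality bear on every value below. All 6 listed Hodgkin lymphoma markers lay above the level filter of 7.11, with group means from 9.23 (CD40) to 12.71 (CCL17) on miR-9 LNA arrays, against 9.29 to 12.69 on scrambled LNA arrays. All 5 T cell markers lay below the filter. Of 4 macrophage markers 1 lay above it, as did 3 of 4 fibroblast markers and 2 of 3 hepatocyte markers, and of these COL1A1 was the highest at 8.14 and 8.18. The group means of CSF1R, DCN, COL1A2, APOA1 and TTR were at most 7.31. Scrambled LNA replicate 1 stood apart, with a 90th percentile of 9.29, against 9.54 to 9.58 on the miR-9 LNA arrays and 9.46 and 9.48 on the other scrambled LNA arrays. Many of the results below are also given without that array, or after quantile normalization, which gives all arrays 1 distribution. The arrays do not read mature miR-9, so its inhibition was not measured here. In these bulk samples fewer cells expressing a gene and less RNA per cell cannot be told apart.

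The comparison asks whether blocking miR-9 for 9 h was accompanied by a different level of the lipid synthesis mRNAs. None of the 28 genes passed a limma adjusted p under 0.05, and 0 of 27307 probe sets did (0%). Of the 28, 22 lay higher and 6 lower on the miR-9 LNA arrays as deposited, with a median log2 difference of 0.15. Over all tested probe sets 66.9% lay higher, with a median of 0.06. After quantile normalization 13 of the 28 lay higher and 15 lower, with a median of -0.002, against 51.5% higher and a median of 0.004 over all tested probe sets. On both scales 13 of the 28 lay higher, among them SQLE, ELOVL5, ELOVL6 and ACSL4, and 6 lay lower, which were MVK, MVD, TM7SF2, SREBF1, FASN and FADS2, while 9 changed sign between the scales.

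**Figure D1:**
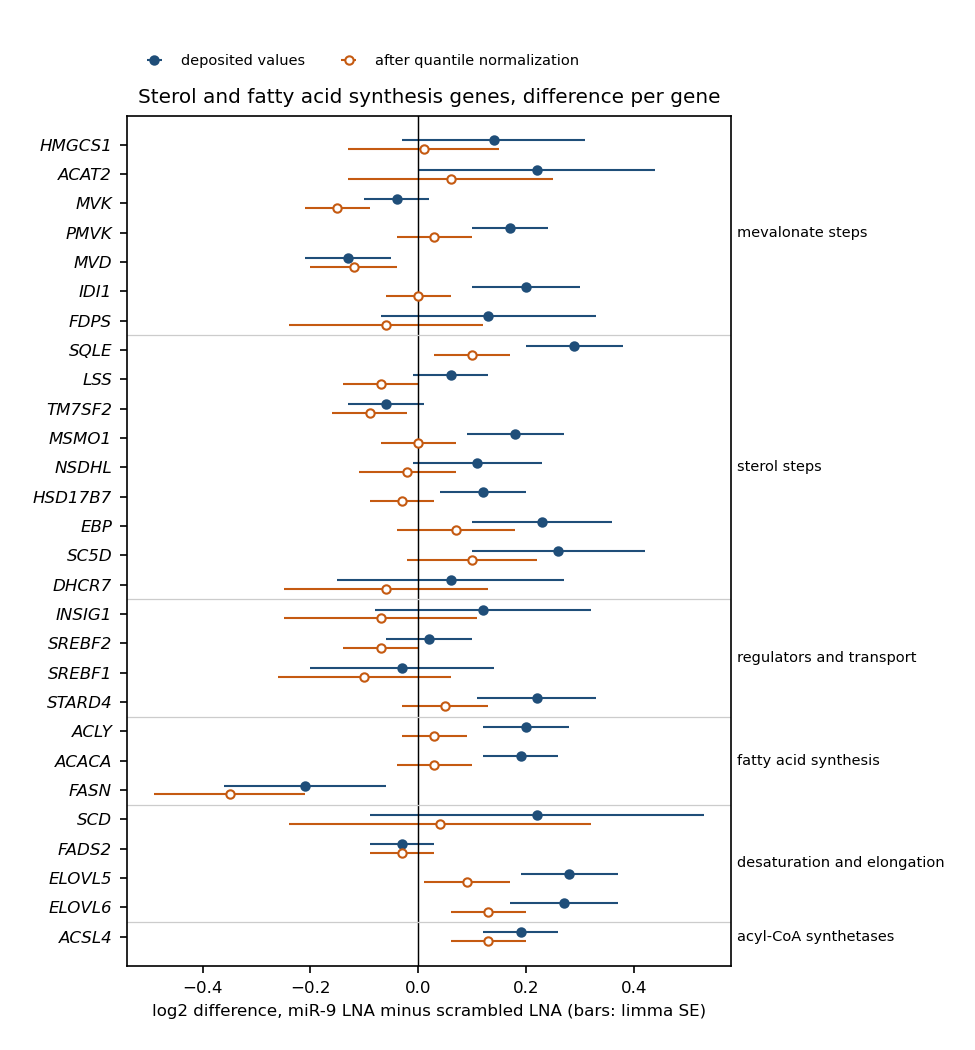
Log2 difference of each of the 28 genes, miR-9 LNA minus scrambled LNA (n = 3 arrays per group), with limma SE as bars, by role in the pathway. Filled points are deposited values, of which 22 lie above 0, and open points are quantile-normalized values, of which 13 do; FASN lies lowest on either scale.

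At an unadjusted limma p under 0.05, 7 of the 28 genes lay higher with the miR-9 LNA, where 13.8% of all tested probe sets did, and 0 lay lower, where 0.626% did. Non-overlapping groups of arrays were seen for 8 genes in the higher direction (18.1% of all tested probe sets) and for 0 in the lower direction (3.97%). For a gene without overlap a two-sided exact permutation test gives p = 0.1, the smallest that 3 against 3 arrays allow. After quantile normalization 0 of the 28 lay higher at an unadjusted limma p under 0.05 (2.38% of all tested probe sets) and 2 lower (2.17%, and 4.55% in either direction), and 1 gene in each direction did not overlap (5.98% higher and 5.72% lower). The limma fit blocked on replicate number gave 12 higher (21.8%) and 1 lower (1%) at an unadjusted p under 0.05 (22.8% in either direction), and 0 past the adjusted threshold (0%). Blocked and quantile-normalized together, it gave 1 higher (6.47%) and 2 lower (4.19%), and 10.7% in either direction over all tested probe sets. In all 3 same-numbered pairs 20 of the 28 genes lay higher on the deposited scale, against 40.2% of all tested probe sets, and 5 of 28 after quantile normalization, against 21.3%. In the lower direction in all 3 pairs there were 2 of the 28 as deposited (10%) and 5 after quantile normalization (15.5%). Without scrambled LNA replicate 1 the counts at an unadjusted limma p under 0.05 were 3 higher (10%) and 0 lower (3.13%), with 18 of the 28 genes above 0 (63.2%) and a median log2 difference of 0.05. Leaving out miR-9 LNA replicate 1, 2 or 3 in its place gave 3 (8.82% of all tested probe sets in either direction), 3 (9.28%) and 4 genes (12.2%) at that limit, all higher but for 2 of the 4, and the median was 0.04 without miR-9 LNA replicate 3. Without scrambled LNA replicate 1 and after quantile normalization, 0 lay higher (3%) and 0 lower (4.97%) at that limit (7.97% in either direction), and 8 of the 28 lay above 0 (54.2%).

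Differences in the deposited values followed brightness, and most of these genes are bright. With the tested probe sets split by level into 5 bins of equal size, the brightest bin, from a level of 9.48 up, held 13 of the 28 genes. Their median log2 difference was 0.22, and that of all probe sets of this bin was 0.19. The next bin held 9 of the genes, with a median of 0.11, against 0.14 over all its probe sets. In the middle bin 4 of the genes had a median of -0.01, against 0.06, and in the bin below it 2 had a median of -0.08, against -0.005 over all its probe sets. After quantile normalization the medians of the 13 and the 9 genes were 0.041 and -0.027, against 0.012 and 0.017 over all probe sets of those bins.

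Of the mevalonate genes, which turn acetyl-CoA into isoprenoids, 5 of 7 lay higher on the miR-9 LNA arrays as deposited and 3 of 7 after quantile normalization. HMGCS1, which makes HMG-CoA at the entry of the pathway, was at 8.69, 8.98 and 9.31 on the miR-9 LNA arrays, against 8.65, 8.87 and 9.05 on the scrambled LNA arrays. Replicate 3 was the highest array of each group and the groups overlapped. The difference was 0.14 ± 0.17 (limma adjusted p = 0.699), and 0.01 after quantile normalization. The second HMGCS1 probe set, 205822_s_at, differed by 0.35 (limma unadjusted p = 0.28), and by 0.25 after quantile normalization. Its values ranged from 7.99 on scrambled LNA replicate 1 to 9.19 on scrambled LNA replicate 3.

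MVK, the mevalonate kinase, was at 8.42, 8.36 and 8.49 on the miR-9 LNA arrays, against 8.44, 8.48 and 8.48 on the scrambled LNA arrays. The values of the groups overlapped within a narrow band. The difference was -0.04 ± 0.06 (limma adjusted p = 0.742), and after quantile normalization it was -0.15 ± 0.06 (limma unadjusted p = 0.0408, adjusted p = 0.9). All 4 MVK probe sets lay lower on the miR-9 LNA arrays as deposited. MVD, the decarboxylase that makes isopentenyl diphosphate, was at 7.15, 7.28 and 7.44 on the miR-9 LNA arrays, against 7.39, 7.41 and 7.47 on the scrambled LNA arrays. Its difference within same-numbered pairs of arrays was between -0.24 and -0.03, with a difference of -0.13 ± 0.08 (limma adjusted p = 0.466) and of -0.12 after quantile normalization. PMVK, the kinase between MVK and MVD, differed by 0.17 ± 0.07 (limma adjusted p = 0.324), and by 0.03 after quantile normalization. IDI1, the isopentenyl diphosphate isomerase, differed by 0.20 ± 0.10, and by -0.0004 after quantile normalization. Its 2 bright probe sets, 208881_x_at and 204615_x_at, are of a class that can also detect related transcripts.

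Of the genes from squalene to cholesterol, 8 of 9 measured lay higher on the miR-9 LNA arrays as deposited and 3 of 9 after quantile normalization. SQLE, the squalene epoxidase and a rate-limiting step of the sterol branch, was at 11.24, 11.31 and 11.42 on the miR-9 LNA arrays, against 10.86, 11.08 and 11.17 on the scrambled LNA arrays. Every miR-9 LNA array lay above every scrambled LNA array. The difference was 0.29 ± 0.09 (limma adjusted p = 0.296), and it was 0.10 ± 0.07 after quantile normalization (limma unadjusted p = 0.203). Without scrambled LNA replicate 1 it was 0.20 (limma unadjusted p = 0.0341).

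The 4 SQLE probe sets did not move one way. SQLE probe set 213562_s_at lay higher by 0.39 in the deposited values (limma unadjusted p = 0.0484) and by 0.24 after quantile normalization. SQLE probe set 213577_at was at 9.28, 9.02 and 9.21 on the miR-9 LNA arrays, against 8.90, 9.93 and 9.66 on the scrambled LNA arrays. Scrambled LNA replicate 1 was the lowest of all 6 arrays there and replicates 2 and 3 the highest. Its difference was -0.33 (limma unadjusted p = 0.213), and -0.47 after quantile normalization (limma unadjusted p = 0.0486, adjusted p = 0.9). The dimmer 1557352_at differed by -0.13 on either scale.

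TM7SF2, a sterol reductase of the middle of the pathway, was the 1 gene of the branch that lay lower, at 7.62, 7.78 and 7.75 on the miR-9 LNA arrays, against 7.78, 7.84 and 7.69 on the scrambled LNA arrays. Its groups overlapped, with a difference of -0.06 ± 0.07 (limma adjusted p = 0.716). The other deposited differences were 0.26 ± 0.16 for SC5D, a sterol desaturase, 0.23 ± 0.13 for EBP, the sterol isomerase, and 0.18 ± 0.09 for MSMO1, the sterol methyl oxidase. They were 0.12 ± 0.08 for HSD17B7, a keto-sterol reductase, 0.11 ± 0.12 for NSDHL, the decarboxylating sterol dehydrogenase, 0.06 ± 0.07 for LSS, the lanosterol synthase, and 0.06 ± 0.21 for DHCR7, the last reductase. Limma adjusted p for these 7 genes ranged from 0.413 to 0.914. After quantile normalization SC5D (0.10) and EBP (0.07) stayed above 0, and HSD17B7, NSDHL, LSS, DHCR7 and MSMO1 lay between -0.07 and -0.0034. The HSD17B7 probe set, 220081_x_at, is of the class that can also detect related transcripts.

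By their brightest probe sets, SREBF2 and SREBF1 differed little between the groups as deposited. SREBF2, which encodes the SREBP that mainly drives cholesterol synthesis, was at 8.29, 8.24 and 8.47 on the miR-9 LNA arrays, against 8.27, 8.29 and 8.39 on the scrambled LNA arrays. The groups overlapped almost fully, with a difference of 0.02 ± 0.08 (limma adjusted p = 0.92). The other SREBF2 probe sets, 201248_s_at and 242748_at, differed by -0.06 and -0.08, and after quantile normalization all 3 lay lower with the miR-9 LNA, by -0.07, -0.11 and -0.16 (242748_at, limma unadjusted p = 0.0372, adjusted p = 0.9).

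SREBF1, whose SREBP mainly drives fatty acid synthesis, was at 8.02, 7.82 and 8.42 on the miR-9 LNA arrays, against 8.14, 7.89 and 8.31 on the scrambled LNA arrays. Replicate 3 was highest and replicate 2 lowest in each group. The difference was -0.03 ± 0.17 (limma adjusted p = 0.94). INSIG1, which is itself induced by SREBP and retains it when sterols are high, was at 10.37, 10.75 and 10.98 on the miR-9 LNA arrays, against 10.20, 10.65 and 10.89 on the scrambled LNA arrays. Within a group INSIG1 spanned 0.61 on the miR-9 LNA arrays and 0.68 on the scrambled LNA arrays, and the group difference was 0.12 ± 0.20 (limma adjusted p = 0.787). The other INSIG1 probe sets, 201625_s_at and 201627_s_at, differed by 0.12 and 0.31 (limma unadjusted p = 0.722 and 0.155). After quantile normalization these were -0.02 and 0.15. STARD4, a cytosolic sterol carrier and SREBP target, differed by 0.22 ± 0.11 (limma adjusted p = 0.41), and by 0.05 after quantile normalization.

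Of the enzymes of fatty acid synthesis, ACLY and ACACA lay higher on the miR-9 LNA arrays as deposited and FASN lower. ACLY, which splits citrate into cytosolic acetyl-CoA, was at 12.27, 12.24 and 12.23 on the miR-9 LNA arrays, against 11.90, 12.13 and 12.12 on the scrambled LNA arrays. ACACA, the acetyl-CoA carboxylase that makes malonyl-CoA, was at 9.58, 9.59 and 9.74 on the miR-9 LNA arrays, against 9.37, 9.51 and 9.46 on the scrambled LNA arrays. By these brightest probe sets neither gene's groups overlapped. The differences were 0.20 ± 0.08 for ACLY and 0.19 ± 0.07 for ACACA (limma adjusted p = 0.32 and 0.316), and both were 0.03 after quantile normalization. The second ACACA probe set, 214358_at, had overlapping groups and differed by -0.04, or by -0.11 after quantile normalization. With the mean of all its probe sets ACACA differed by 0.08. The further ACLY probe sets, 201127_s_at and 210337_s_at, differed by 0.11 and 0.21.

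FASN, which assembles palmitate from malonyl-CoA, was at 8.95, 8.88 and 9.41 on the miR-9 LNA arrays, against 9.27, 9.14 and 9.45 on the scrambled LNA arrays. The groups overlapped, with replicate 3 the highest array of each, and the difference within same-numbered pairs was -0.32, -0.26 and -0.04 for replicates 1, 2 and 3. The deposited difference was -0.21 ± 0.15 (limma adjusted p = 0.524), and with same-numbered arrays as a block its limma unadjusted p was 0.0297 (adjusted p = 0.183). After quantile normalization the FASN difference was -0.35 ± 0.14 (limma unadjusted p = 0.0394, adjusted p = 0.9), and with the block as well its limma unadjusted p was 0.00539 (adjusted p = 0.461). Without scrambled LNA replicate 1 it differed by -0.22 in the deposited values and by -0.30 after quantile normalization (limma unadjusted p = 0.254 and 0.108). The dim FASN probe set 217006_x_at differed by -0.11 and -0.09 on these scales with all 6 arrays.

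Among genes of desaturation, elongation and acyl-CoA synthesis, ELOVL5, ELOVL6 and ACSL4 lay higher with the miR-9 LNA in all 3 same-numbered pairs on either scale. ELOVL5, which elongates polyunsaturated fatty acids, was at 11.28, 11.25 and 11.11 on the miR-9 LNA arrays, against 10.79, 11.09 and 10.93 on the scrambled LNA arrays. ELOVL6, which extends palmitate to stearate, was at 9.15, 9.08 and 9.26 on the miR-9 LNA arrays, against 8.70, 8.93 and 9.06 on the scrambled LNA arrays. ACSL4, which activates arachidonate and other long polyunsaturated acids, was at 8.14, 8.31 and 8.23 on the miR-9 LNA arrays, against 8.01, 8.10 and 7.99 on the scrambled LNA arrays. In each case the lowest miR-9 LNA array lay above the highest scrambled LNA array.

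The differences were 0.28 ± 0.09 for ELOVL5, 0.27 ± 0.10 for ELOVL6 and 0.19 ± 0.07 for ACSL4 (limma adjusted p = 0.296, 0.318 and 0.305). After quantile normalization they were 0.09, 0.13 and 0.13 (limma unadjusted p = 0.269, 0.108 and 0.106), and of the 3 only ACSL4 then had groups without overlap. The dimmer ACSL4 probe sets 1557418_at and 1557419_a_at differed by 0.08 and -0.01. The further ELOVL5 probe sets, all dimmer, differed by 0.09, 0.00 and -0.00, and those of ELOVL6 by 0.01 and 0.06. With the mean of all its probe sets ELOVL5 differed by 0.09 and ELOVL6 by 0.11. FADS2, a desaturase of polyunsaturated fatty acids, differed by -0.03 ± 0.06 (limma adjusted p = 0.809), at a level close to the filter. SCD, the stearoyl-CoA desaturase that makes oleate, was at 10.57, 10.48 and 11.34 on the miR-9 LNA arrays, against 10.17, 10.39 and 11.18 on the scrambled LNA arrays. Replicate 3 stood 0.82 above the mean of the other arrays of the miR-9 LNA group and 0.90 above that of the scrambled LNA group. The SE of the difference, 0.22 ± 0.31, exceeded the difference itself (limma adjusted p = 0.743), which was 0.04 after quantile normalization.

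**Figure D2:**
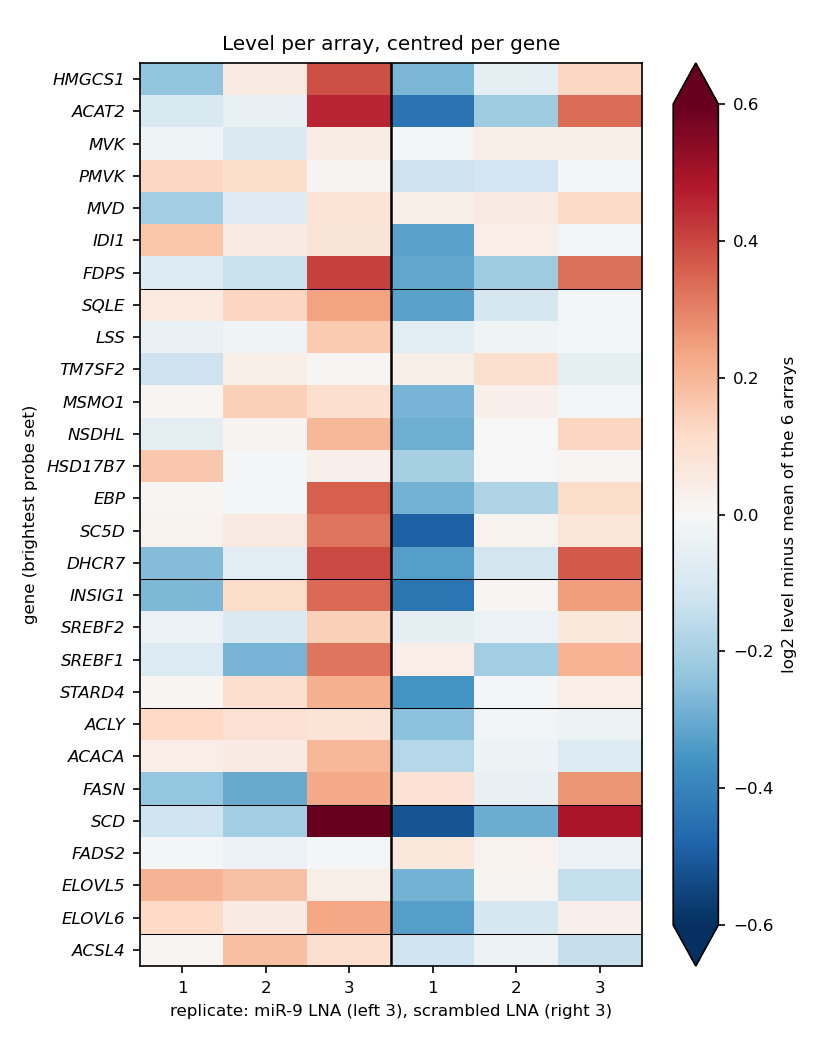
Level of each of the 28 genes on each array, as the log2 level minus the gene's mean over the 6 arrays, with 3 miR-9 LNA arrays left of the line and 3 scrambled LNA arrays right of it. Colours saturate at 0.6. Replicate 3 is the highest array of each group for 17 of the 28 genes, most clearly SCD, ACAT2, FDPS and DHCR7, and scrambled LNA replicate 1 is low for many bright genes.

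Several of these genes had levels that went with replicate number in each group. For SCD, DHCR7, ACAT2, FDPS and INSIG1, replicate 3 lay highest in each group. Same-numbered arrays of the 2 groups differed by at most 0.08 for DHCR7 and 0.17 for INSIG1. The replicate 1 arrays of the 2 groups differed by 0.40 for SCD, 0.35 for ACAT2 and 0.23 for FDPS. DHCR7 was at 8.54, 8.74 and 9.20 on the miR-9 LNA arrays, against 8.47, 8.69 and 9.17 on the scrambled LNA arrays. ACAT2, the cytosolic thiolase that makes acetoacetyl-CoA, was at 9.64, 9.69 and 10.19 on the miR-9 LNA arrays, against 9.29, 9.52 and 10.07 on the scrambled LNA arrays. FDPS, the farnesyl diphosphate synthase, was at 10.70, 10.65 and 11.19 on the miR-9 LNA arrays, against 10.47, 10.57 and 11.11 on the scrambled LNA arrays. In all of these the arrays of replicates 1 and 2 lay below the replicate 3 array of the other group as well as of their own. The number 3 is the submitters' label for an array in each group, and the labels do not say what arrays of 1 number share.

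The term for replicate number was tested in the limma fit that holds both group and number, a comparison added after the values were seen. In the deposited values 0 of the 28 genes passed an adjusted p under 0.05 for the number, where 0.0476% of all tested probe sets did, and the lowest limma adjusted p was 0.0664, for SCD and DHCR7. At an unadjusted p under 0.05, 13 of the 28 genes were called, against 16.1% of all tested probe sets. After quantile normalization limma called 5 of the 28 at an adjusted p under 0.05, against 2.11%, and 13 of the 28 at an unadjusted p under 0.05, against 21.5%. The 5 were SCD, ACAT2, DHCR7, FDPS and INSIG1 (limma adjusted p = 0.0169, 0.0272, 0.029, 0.0344 and 0.0394).

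Among the genes not past that threshold, limma adjusted p for the number after quantile normalization was 0.0652 for SREBF1, 0.0961 for EBP and 0.103 for HMGCS1. Leaving out 1 array leaves 1 residual degree of freedom in this fit, and the number of the 28 genes called at an adjusted p under 0.05 in the deposited values was then 18 (41.7% of all tested probe sets), 1 (0.212%) and 0 (0%) without miR-9 LNA replicates 1, 2 and 3. It was 12 (25.7%), 1 (0.216%) and 0 (0%) without scrambled LNA replicates 1, 2 and 3. At an unadjusted p under 0.05 the count was 15 (35.2%) without scrambled LNA replicate 1, 7 (6.42%) without miR-9 LNA replicate 3 and 8 (5.21%) without scrambled LNA replicate 3, against 13 with all arrays. Replicate 3 was the highest array of each group for 17 of the 28 genes in the deposited values and for 14 after quantile normalization, against 22.9% and 18% of all tested probe sets.

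**Figure D3:**
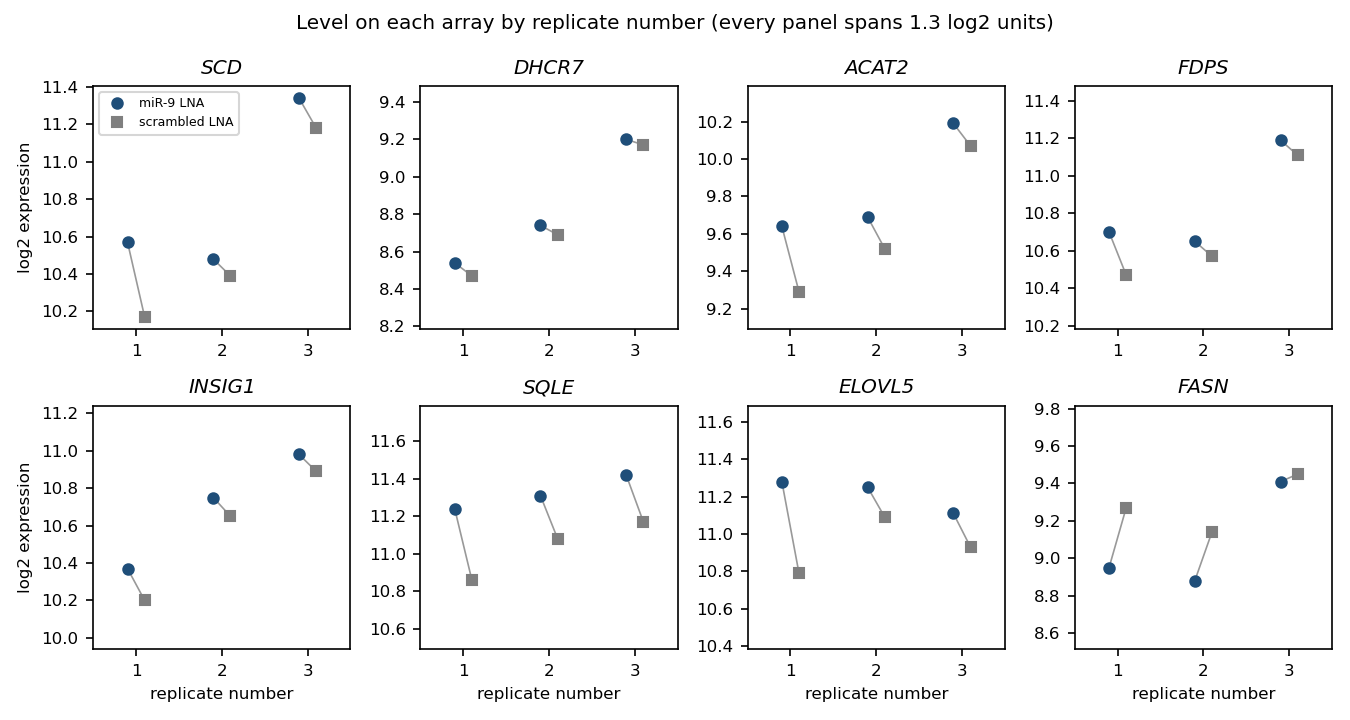
Deposited log2 level of 8 genes on every array by replicate number, with the miR-9 LNA as circles left of the scrambled LNA as squares and a line joining arrays of 1 number. SCD, DHCR7, ACAT2, FDPS and INSIG1 are highest at number 3 in each group; SQLE and ELOVL5 lie higher with the miR-9 LNA at every number and FASN lower.

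The size of this variation was read as the range of the 3 means of same-numbered arrays. It was 0.89 for SCD, 0.68 for DHCR7, 0.67 for ACAT2, 0.64 for INSIG1 and 0.56 for FDPS on the log2 scale of the deposited values. HMGCS1 and SREBF1 each ranged over 0.51, SC5D over 0.43, FASN over 0.42 and EBP over 0.37. At the other end lay PMVK (0.01), HSD17B7 (0.04), FADS2 (0.05) and MVK (0.06). Over all tested probe sets the median range was 0.13 and the 90th percentile 0.33, and 11 of the 28 genes lay above that percentile. The range exceeded the size of the difference between the LNAs for 19 of the 28 genes in the deposited values, against 67% of all tested probe sets, a share close to that of the genes. These are unlike measures. A range of 3 means, each of fewer arrays than a group mean, tends to exceed a group difference by construction. After quantile normalization the range exceeded the size of the difference between the LNAs for 25 of the 28 genes and for 79.3% of all tested probe sets, and 9 of the 28 lay above the 90th percentile of all tested probe sets, 0.32.

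**Figure D4:**
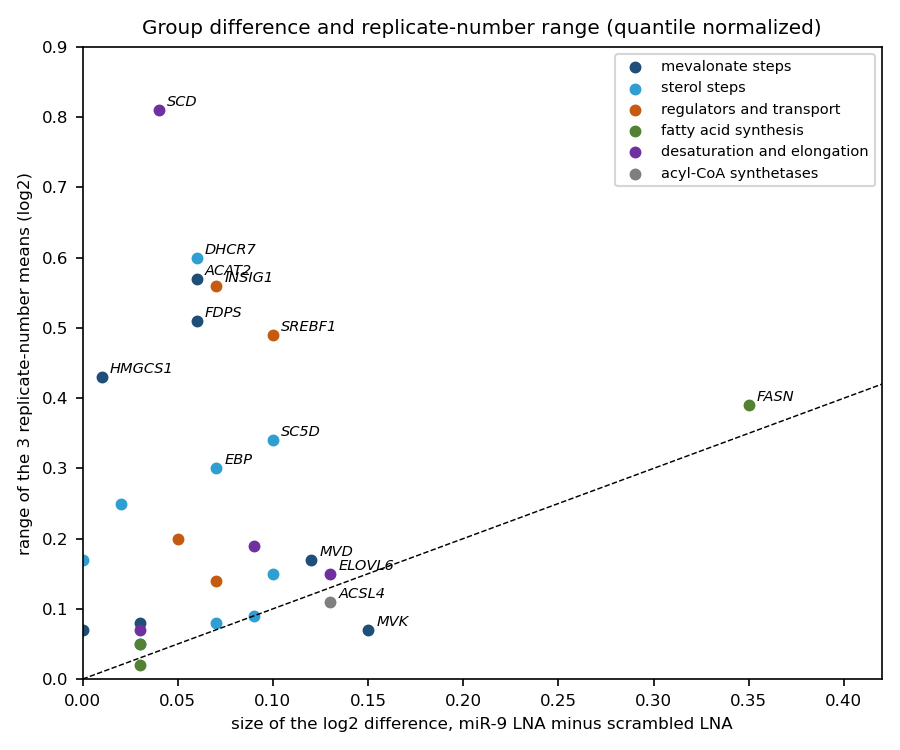
For each of the 28 genes, the range of the 3 replicate-number means (vertical axis, log2) against the size of the difference between miR-9 LNA and scrambled LNA (horizontal axis, log2), both after quantile normalization. The dashed line marks equal size: 25 genes lie above it, SCD farthest at 0.81, and FASN has the greatest group difference. The axes are unlike measures, and the range tends to be the larger by construction, as it was for 79.3% of all tested probe sets.

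Further probe sets of the same genes differed in how far they shared this order. Of the 58 probe sets of the 20 genes with more than 1, 26 were highest on replicate 3 of each group. Over all tested probe sets the share was 22.9%. The 58 include the brightest probe set of each gene, counted above, beside 38 further probe sets, some of them below the level filter. For EBP it was 1 of 4, for ELOVL6 1 of 3, and for SREBF1, SC5D, FASN and NSDHL 1 of 2, while ACAT2 and FDPS had no further probe set. IDI1 and ELOVL5 each had 0 of 4 highest there, ACSL4 0 of 3 and FADS2 0 of 2. All 4 SCD probe sets were highest on replicate 3 of each group, by 0.74 to 1.03 over the mean of the other arrays of the miR-9 LNA group and by 0.89 to 1.18 in the scrambled LNA group. Each of the 4 had a limma adjusted p for the number between 0.0169 and 0.0241 after quantile normalization. All 3 INSIG1 probe sets were highest on replicate 3 too, and 201625_s_at stood out by 0.94 in the miR-9 LNA group and 0.87 in the scrambled LNA group. Both DHCR7 and both HMGCS1 probe sets were highest there as well. HMGCS1 205822_s_at on replicate 3 lay 0.42 above the mean of the others in the miR-9 LNA group and 1.06 above it in the scrambled LNA group. After quantile normalization the limma adjusted p for the number was 0.0537 for INSIG1 201627_s_at, 0.104 for DHCR7 201791_s_at and 0.0748 for HMGCS1 205822_s_at. It was 0.0169 for INSIG1 201625_s_at. Probe sets of 1 gene on 1 array share the sample and are not further replicates.

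**Figure D5:**
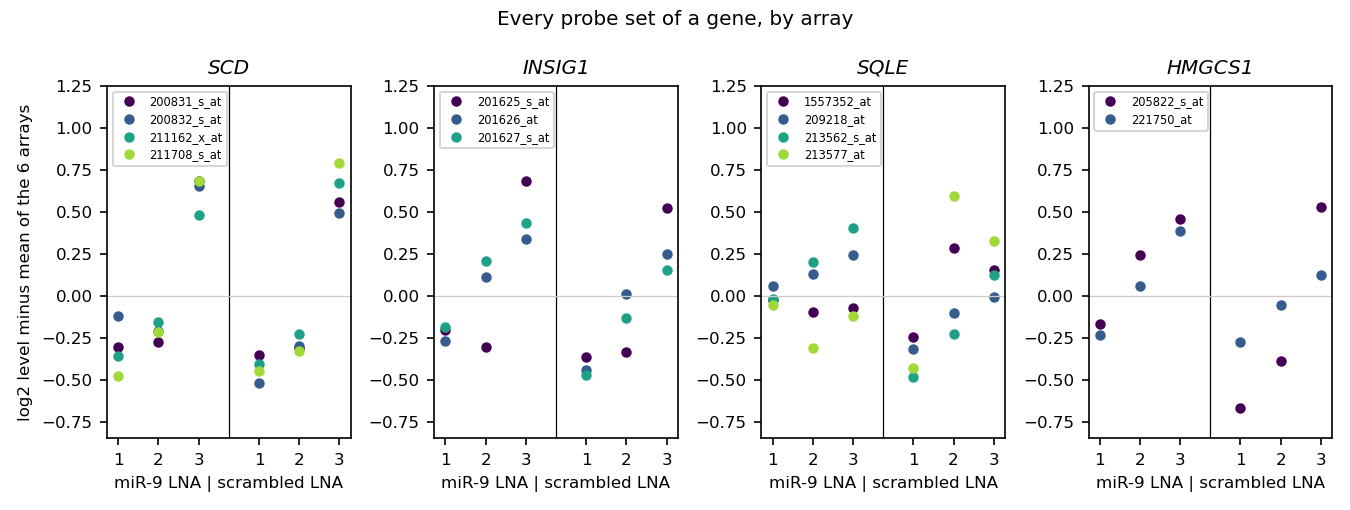
Every probe set of SCD, INSIG1, SQLE and HMGCS1 on each array, as the log2 level minus that probe set's mean over the 6 arrays, with miR-9 LNA arrays left of the line and scrambled LNA arrays right of it. The 4 SCD and 3 INSIG1 probe sets are highest on replicate 3 of each group, and the SQLE probe sets go opposite ways.

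Promoters are shown for the factor sites known to serve this pathway. They are those of genes called for the replicate number after quantile normalization, where a window was held, and of SREBF2, for its sterol element match. SREBPs bind sterol regulatory elements and act with NF-Y, which binds CCAAT. RefSeq windows (GRCh38.p14) from 250 bases before to 50 bases after the start were held for 28 of the 32 listed genes. They include ACSL3, CYP51A1 and FADS1, for which no array value is given, and the genes without a window are ACAT2, FASN, FDFT1 and SQLE. CCAAT, searched on either strand, was present in 26 of the 37 windows of these 28 genes (70.3%), which belong to 22 genes, and in 34.6% of all 35116 windows. Counted by gene, 39.7% of all genes in the table had a window with CCAAT. Genes not highest on replicate 3 of each group had CCAAT too, among them MVK, IDI1, TM7SF2, MSMO1 and ELOVL5. A match is a description of the letters and does not show binding. CACGTG was present in a window of ELOVL5, INSIG1, LSS and SC5D, 13.5% of the 37 windows against 7.26% of all, and cannot share letters with CCAAT. TCACNCCAC, the core of a sterol regulatory element, was present in SREBF2 alone, 2.7% against 1.13% of all windows, and these letters do not overlap a CCAAT match there.

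The windows of SCD, FDPS, DHCR7 and INSIG1 follow, 5′ to 3′ on the strand of the gene, with each CCAAT or its reverse complement ATTGG in capitals. They held 2 matches for SCD (chr10:100346983-100347282, plus strand), 3 for FDPS (chr1:155308616-155308915, plus strand), 2 for DHCR7 (chr11:71448344-71448643, minus strand, 1 of 2 windows) and 1 for INSIG1 (chr7:155297628-155297927, plus strand). For SREBF2 (chr22:41832855-41833154, plus strand) the capitals mark the 1 match of TCACNCCAC.
SCD: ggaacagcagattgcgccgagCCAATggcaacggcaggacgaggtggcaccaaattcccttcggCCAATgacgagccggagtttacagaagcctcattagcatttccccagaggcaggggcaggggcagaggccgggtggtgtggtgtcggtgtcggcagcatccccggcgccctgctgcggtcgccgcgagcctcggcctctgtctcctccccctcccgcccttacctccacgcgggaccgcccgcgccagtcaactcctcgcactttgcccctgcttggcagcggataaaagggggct
FDPS: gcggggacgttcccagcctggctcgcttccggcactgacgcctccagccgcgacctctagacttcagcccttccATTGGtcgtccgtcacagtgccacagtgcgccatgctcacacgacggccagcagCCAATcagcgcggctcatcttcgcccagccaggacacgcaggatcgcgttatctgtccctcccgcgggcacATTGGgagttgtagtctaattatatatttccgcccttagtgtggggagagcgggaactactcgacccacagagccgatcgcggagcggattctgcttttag
DHCR7: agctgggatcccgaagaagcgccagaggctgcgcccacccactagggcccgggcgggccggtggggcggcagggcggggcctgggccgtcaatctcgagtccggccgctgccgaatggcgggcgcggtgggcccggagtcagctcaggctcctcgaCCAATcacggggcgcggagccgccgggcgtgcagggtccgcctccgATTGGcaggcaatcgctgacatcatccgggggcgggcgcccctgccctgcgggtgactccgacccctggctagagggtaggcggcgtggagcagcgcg
INSIG1: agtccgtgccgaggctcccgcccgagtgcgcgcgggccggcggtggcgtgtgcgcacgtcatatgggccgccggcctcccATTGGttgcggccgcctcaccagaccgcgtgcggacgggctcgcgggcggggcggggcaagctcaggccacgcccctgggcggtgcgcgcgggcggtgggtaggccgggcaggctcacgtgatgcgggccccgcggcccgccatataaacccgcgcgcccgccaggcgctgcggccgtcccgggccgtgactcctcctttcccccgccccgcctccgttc
SREBF2: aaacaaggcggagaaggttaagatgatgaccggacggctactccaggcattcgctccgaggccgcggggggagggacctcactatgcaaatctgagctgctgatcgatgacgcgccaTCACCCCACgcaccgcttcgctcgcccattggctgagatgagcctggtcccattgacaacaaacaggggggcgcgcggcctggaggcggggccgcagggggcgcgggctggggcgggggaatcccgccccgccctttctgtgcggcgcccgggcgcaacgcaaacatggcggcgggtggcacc

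A further 34 genes of sterol and fatty acid handling were read from the same fit, of which 32 were named on the array and 27 passed the level filter. In the deposited values 23 of the 27 lay higher on the miR-9 LNA arrays and 4 lower, with a median log2 difference of 0.15, and 0 passed a limma adjusted p under 0.05. At an unadjusted p under 0.05, 8 lay higher (13.8% of all tested probe sets) and 0 lower (0.626%). After quantile normalization 17 lay higher and 10 lower, with a median of 0.039, and 0 lay higher (2.38%) and 0 lower (2.17%) at that limit. TMEM97, a sterol-responsive membrane protein, differed by 0.29 ± 0.07 and ACSL1, a long-chain acyl-CoA synthetase, by 0.26 ± 0.07 (limma adjusted p = 0.296 for each). In the lower direction ACACB, the mitochondrial acetyl-CoA carboxylase, differed by -0.10 ± 0.07 and ACSS2, which makes acetyl-CoA from acetate, by -0.07 ± 0.06 (limma adjusted p = 0.562 and 0.628). After quantile normalization these differences were 0.10 for TMEM97, 0.07 for ACSL1, -0.19 for ACACB and -0.05 for ACSS2. For the replicate number, limma called 1 of the 27 at an adjusted p under 0.05 after quantile normalization (2.11% of all tested probe sets). It was MYLIP, a ubiquitin ligase induced by sterol-sensing LXR receptors, named here after its value was seen (limma adjusted p = 0.0203). MYLIP was at 8.97, 8.81 and 9.59 on the miR-9 LNA arrays, against 8.73, 8.74 and 9.54 on the scrambled LNA arrays, with replicate 3 the highest array of each group.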

How the data were processed

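Expression was measured on 6 Affymetrix HG-U133 Plus 2.0 arrays, 3 per group, grouped by the sample titles. The authors deposited log2 values for 54675 probe sets. The submitters' processing notes name affy and RMA and no version. On each array the lowest values lay near 6, and the lowest deposited log2 value was 5.97. An offset on top of RMA is not stated, and if there was one, differences of dim genes are understated.

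After removal of 62 control probe sets, the 27307 probe sets whose 6-array mean reached the median of the remainder (7.11) entered a two-sided limma test (version 3.58.1, R 4.3.3, functions lmFit and eBayes). P-values were adjusted over all of them by Benjamini-Hochberg, with a threshold of 0.05. With 6 arrays in all, their number limits the precision. Symbols came from the platform annotation (41091 probe sets with 1 symbol, 1801 with several, 11721 with none), and for 41037 of those with 1 symbol the Entrez ID was found in RefSeq's GRCh38.p14 table. Each gene was read by its brightest probe set.

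The rule for named genes gives all listed genes, with values on every array for the 6 of smallest p in the higher and the 4 in the lower direction and for 8 genes fixed by role. DHCR7, ACAT2 and FDPS were added after their values were seen. The genes and lists were chosen with earlier results of these data known. Deviations from the group means correlated at r = 0.231, 0.193 and 0.634 between same-numbered arrays and at -0.429 to 0.168 between others. Only replicate 3 stood apart, since miR-9 LNA replicate 1 and scrambled LNA replicate 2 reached 0.168. The labels do not pair the arrays, and for replicates 1 and 2 these values do not settle a pairing. Alternatives covered the filter, normalization, variance model, array weights, replicate block, probe set rule and leaving out each array. Settings that combine quantile normalization with the block or with an array left out, and the term for replicate number, were added after the data were seen. The fit was checked on simulated arrays. Python 3.11.15 and matplotlib 3.10.9 drew the figures.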

Additional observations from a re-analysis of the deposited data

How the results depend on the processing

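None of the 28 genes passed a limma adjusted p under 0.05 for the LNA under the main setting or any of 16 alternatives, and the lowest adjusted p of a gene was 0.133. No probe set did under those alternatives that test single probe sets, which leaves out the mean of a gene's probe sets. Of 445 values of single genes under these alternatives, 388 kept their direction, 57 reversed, and 13 genes never reversed. The cause was not tested for any value that moved. The median log2 difference of the 28 genes, 0.153, was -0.002 after quantile normalization, with or without the replicate block, -0.010 after cyclic loess, -0.040 after quantile normalization without scrambled LNA replicate 1, and 0.039 (without miR-9 LNA replicate 3) to 0.224 with 1 array left out. At an unadjusted limma p under 0.05 there were 7 of 28 genes in the main setting and 4 of 25 under a stricter filter. There were 4 with an intensity trend and robust prior, 2 after quantile normalization, 2 after cyclic loess and 1 with the mean of a gene's probe sets. The count was 0 after quantile normalization without scrambled LNA replicate 1, and 3 to 8 with 1 array left out. The replicate block, which takes same-numbered arrays as pairs, gave 13 genes, or 3 after quantile normalization. With the block on deposited values PMVK was no longer below that limit (limma unadjusted p = 0.0506). Over all tested probe sets the count was 3926 of 27307 in the main setting and 2584 of 13654 under the stricter filter. It became 1243 after quantile normalization, 1348 after cyclic loess, 6218 with the block and 2176 after quantile normalization without scrambled LNA replicate 1. Without miR-9 LNA replicates 1 and 2 it was 2408 and 2534. For the replicate number, genes past the adjusted threshold numbered 0 as deposited, 5 after quantile normalization, 5 after cyclic loess and 0 to 18 with 1 array left out (unadjusted 13, and 7 to 20), and probe sets 13, 575, 894 and 0 to 11378.

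Reversed log2 differences after quantile normalization, with or without the block, were -0.0004 for IDI1, -0.0034 for MSMO1, -0.02 for NSDHL, -0.03 for HSD17B7, -0.06 for FDPS and DHCR7, and -0.07 for LSS, INSIG1 and SREBF2. After cyclic loess they were -0.0004 for IDI1, -0.02 for MSMO1, -0.03 for NSDHL, -0.04 for HSD17B7 and -0.07 for FDPS, LSS, DHCR7, INSIG1 and SREBF2. After quantile normalization without scrambled LNA replicate 1 they were -0.01 for STARD4, -0.02 for SC5D, -0.03 for LSS and MSMO1, -0.04 for HMGCS1, IDI1 and HSD17B7, -0.06 for ACAT2 and SREBF2, -0.10 for NSDHL and SCD, -0.11 for FDPS, -0.18 for DHCR7 and -0.19 for INSIG1. SREBF2 was at -0.01 with array weights and -0.04 with the mean of its probe sets. With 1 array left out, the difference ran from -0.20 to 0.10 for SREBF1, -0.02 to 0.29 for HMGCS1, -0.04 to 0.33 for FDPS, -0.0032 to 0.10 for LSS, -0.13 to 0.25 for DHCR7, -0.07 to 0.29 for INSIG1, -0.05 to 0.06 for SREBF2, -0.05 to 0.52 for SCD and -0.01 to 0.20 for NSDHL. Precision is limited by 3 arrays per group and, for MVD, FADS2 and other dim genes, by levels close to the filter.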

Other observations

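Of the 20 genes with more than 1 probe set, 7 had all their probe sets higher on the miR-9 LNA arrays, 4 had all lower and 9 had probe sets of either sign. The 4 with all lower were MVK, SREBF1, FASN and FADS2. A further EBP probe set, 202735_at, was at 9.57, 9.32 and 9.47 on the miR-9 LNA arrays, against 9.17, 9.08 and 9.33 on the scrambled LNA arrays. Its groups overlapped, and it differed by 0.26 (limma unadjusted p = 0.0262), or by 0.11 after quantile normalization (limma unadjusted p = 0.274). The brightest EBP probe set, 213787_s_at, differed by 0.23 (limma unadjusted p = 0.118), and 213789_at and 231320_at by 0.07 and -0.09.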
